A study of Mus musculus with 9 samples.

Results

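The genes described here are 60 genes of DNA replication and mitosis, picked by name and found as 60 of the 50813 genes in the count table. They were sorted by role into 14 genes of origin licensing and firing, 10 of the replication fork and nucleotide supply, 15 of the control of the G1/S transition and 21 of mitosis. All 60 passed the filter on low counts, which kept 14593 genes. Bulk RNA-seq libraries came from Lewis lung carcinoma (LLC) cells, a transplantable mouse lung tumor line that carries a luciferase reporter in all 3 lines compared. The WT line is clonal, and KO E3 and KO E5 are clones grown out after delivery of Cas9 with a guide against Cd47, in DMEM with serum. Each genotype of KO is therefore 1 clone and WT is 1 line, so that a difference between lines and an effect of Cd47 loss cannot be told apart. Each line gave 3 libraries grown in culture, with total counts between 44257404 and 55095219. The methods call the replicates of a genotype independent and biological, so the p-values measure the spread between replicates of 1 line and not that between clones.

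Cells copy their DNA once per division. In G1, cyclin D and CDK4 or CDK6 inactivate the retinoblastoma proteins, which frees E2F factors to switch on genes for licensing and copying DNA. The MCM helicase is loaded at origins by ORC, CDC6 and CDT1 and started by CDC45 and the GINS complex, and later in the cycle cyclin B, CDK1 and the mitotic kinases drive chromosome segregation, under transcription programs that use E2F, CHR and CCAAT elements in promoters. Tumor lines such as LLC divide quickly and express nearly all of these genes in culture.

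Cd47, the targeted gene (ENSMUSG00000055447.20, chr16:49620896-49735373 in GRCm39), stood at 187, 179 and 182 CPM (counts scaled to library size by the TMM method) in the WT libraries. It stood at 47.4, 36.7 and 49.6 CPM in E3 and at 15.5, 18.6 and 18.1 CPM in E5. Every KO library was below every WT library, matching the stated genotypes. The log2 fold change was -2.03 ± 0.13 (SE) in E3 and -3.39 ± 0.14 in E5, with adjusted p of 4.90e-06 and 1.07e-07. Tests throughout are edgeR's quasi-likelihood test, and adjusted p are by Benjamini and Hochberg's method over all genes tested.

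The markers of the tumor's tissue were checked next. Epcam, Nkx2-1, Sftpc, Sftpb and Scgb1a1, which define lung epithelium and its alveolar and airway cells, had 0 counts in all 9 libraries, and Cdh1 stayed at or below 0.13 CPM. The epithelial list as a whole, 9 genes, summed to between 451 and 459 CPM in WT, between 127 and 199 CPM in E3 and between 896 and 958 CPM in E5, nearly all of it the keratins Krt8 and Krt18. The immune, endothelial and erythroid markers each summed to under 0.5 CPM in every library. The 5 mesenchymal markers summed to between 5938 and 8441 CPM and did not move together. Vim was called higher in both clones (0.40 and 0.66), Fn1 (-0.81 and -0.66) and Cdh2 (-0.032 and 0.25) were not called, and Col1a1 (0.99 and -1.45) and Pdgfrb (2.07 and -2.07) were called in opposite directions in E3 and E5.

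One library stood apart from its replicates. Comparing counts gene by gene within a line, the chi-square per degree of freedom was 185 and 222 between E3 replicate 3 and E3 replicates 1 and 2, against 4.68 to 37.1 for the other pairs of the same line. Its deviation went with transcript length. Of the genes tested, 14538 had a canonical transcript in the GENCODE annotation of GRCm39, all 60 genes among them. In the fifth of all genes with the shortest transcripts (up to 1449 bases) the median of E3 replicate 3 was 0.34 log2 above the mean of replicates 1 and 2, and in the fifth with the longest (from 5267 bases) it was -0.58. Among the 60 genes the median was 0.54 for the 4 shortest, Gmnn, Birc5, Gins1 and Rfc3, and -1.002 for the 8 longest, Mcm3, Pola1, Ccnd2, Cenpe, Pole, Mki67, Cenpf and Cdk6. Spearman's correlation between length and this deviation was -0.84 over the 60 genes and -0.62 over all genes, given as a description of 1 library, since genes are not replicates. The measure of length was changed after its result was seen: the union of a gene's exons was used first and gave -0.64 and -0.50, and it was replaced because it made Cenpa 13355 bases long, against 1466 for its canonical transcript. The replacement gave the stronger pattern of the 2. In E5 replicate 3 the same measure was 0.23 over the 60 genes and 0.03 over all genes. It was 0.37 and 0.18 in WT replicate 3, -0.27 and -0.18 in WT replicate 1, and -0.32 and -0.05 in E5 replicate 1. Because the 3 lines share 1 estimate of the spread, E3 replicate 3 enters the tests of E5 too, and the results are given with and without it. What made this library differ was not tested.

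**Figure D1:**
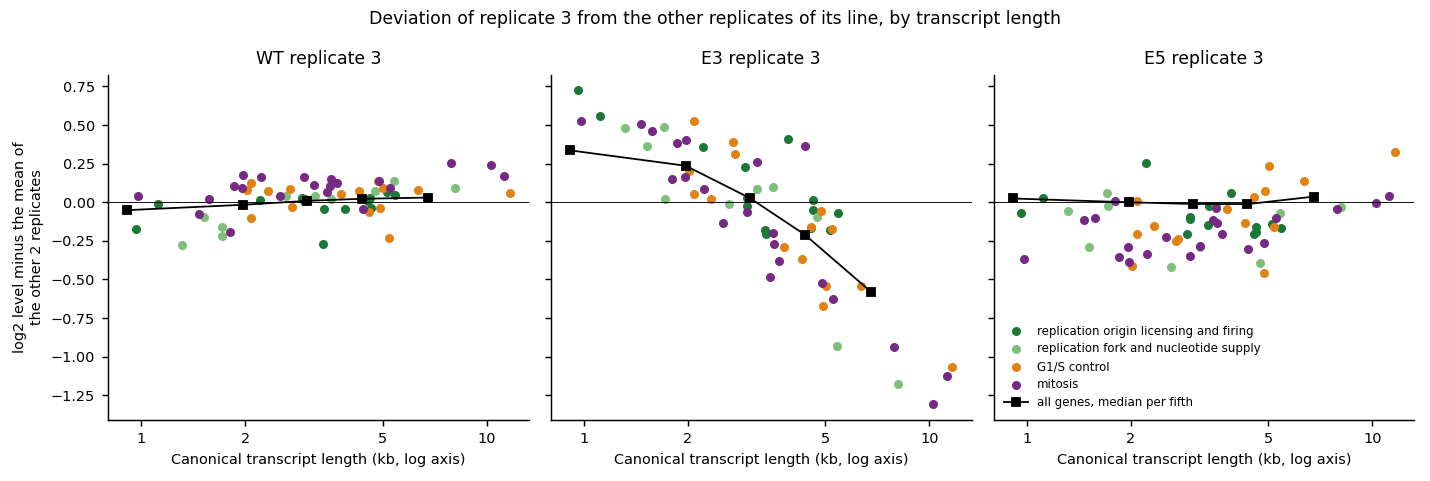
Deviation of replicate 3 from the mean of the other 2 replicates of its line (y axis, log2 CPM) against canonical transcript length (x axis, kb, log scale) for WT, E3 and E5. Points are the 60 genes coloured by role and the black line joins the medians of all genes in 5 classes of length. In E3 replicate 3 the points fall from above 0 for short transcripts to about -1 for the longest, while in the other lines the black line stays near 0.

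Against WT, 20 of the 60 genes (33.3%) were called in E3 at an adjusted p under 0.05, when 30.5% of all genes tested were called. Of these, 18 were higher (15.7% of all genes were) and 2 were lower (14.7% of all genes were). The share called is near that of all genes, and the direction is mostly upward: 46 of the 60 fold changes were positive and their median was 0.24 log2, beside 0.01 over all genes. In E5, 4 of the 60 (6.67%) were called, all higher, when 20.6% of all genes were called, 8.96% higher and 11.7% lower. The median was 0.14, beside -0.00 over all genes, again with 46 positive. The E3 and E5 comparisons share the WT libraries and are set side by side, not counted as independent. In bulk libraries, more cells in S phase or mitosis and more RNA of these genes per cell cannot be told apart.

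Tested directly against each other, the clones differed in 14 of the 60 genes (23.3%), when 31.9% of all genes were called. In 3 of them E5 was above E3 (14.7% of all genes) and in 11 it was below (17.2% of all genes). With an absolute log2 fold change over 1 asked for as well, 1 of the 60 was called in E3 against WT, Cdkn2c, and 0 in each of the other comparisons by edgeR and by DESeq2, while 9.82% of all genes passed in E3 against WT, 8.21% in E5 against WT and 11% in E5 against E3. At the adjusted p alone these comparisons called the 4 and 14 genes just given, and 20 and 23 passed an unadjusted p under 0.05, so the changes of these genes were mostly small. With this size asked for, edgeR called 2 in E3 against WT without E3 replicate 2. In E5 against E3 it called 2 without E3 replicate 1, E3 replicate 2 or E5 replicate 1, and 1 without E5 replicate 2 or with upper-quartile scaling.

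Leaving out E3 replicate 3 raised the counts. In E3 against WT, 31 of the 60 genes were then called, 26 higher and 5 lower, among 43.2% of all genes (21.8% higher, 21.5% lower). In E5 against WT the count went from 4 to 27, 22 higher and 5 lower, among 42% of all genes (20.8% higher, 21.2% lower). In E5 against E3 it went from 14 to 25, 8 higher and 17 lower, among 44.1% of all genes (22.4% higher, 21.7% lower). All 20, 4 and 14 genes called with the library were also called without it, with the same sign. The medians were then 0.23 in E3 and 0.15 in E5. With each library's trend on canonical length subtracted, an alternative chosen after the data were seen, 30, 21 and 19 of the 60 were called in the 3 comparisons (50%, 35% and 31.7%, beside 39.6%, 30.6% and 40.7% of all genes). With the first measure of length they were 24, 13 and 18 (40%, 21.7% and 30%, beside 34.3%, 25.5% and 36%). Other libraries mattered as well: the E3 count was 11 without WT replicate 1 and 10 without WT replicate 2, and the E5 count was 1 without WT replicate 1 or E5 replicate 2. It was 0 by edgeR without WT replicate 2, WT replicate 3 or E5 replicate 1, with 10, 13 and 8 genes at an unadjusted p under 0.05. DESeq2 with all libraries called 12 in E5. In E5 against E3 the count by edgeR was 9 without WT replicate 2, 6 without E5 replicate 2 and 7 without E5 replicate 3. For DESeq2 and for leaving out any library but E3 replicate 3, here and below, the share of all genes is not given. Those counts therefore cannot be set against it.

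**Figure D2:**
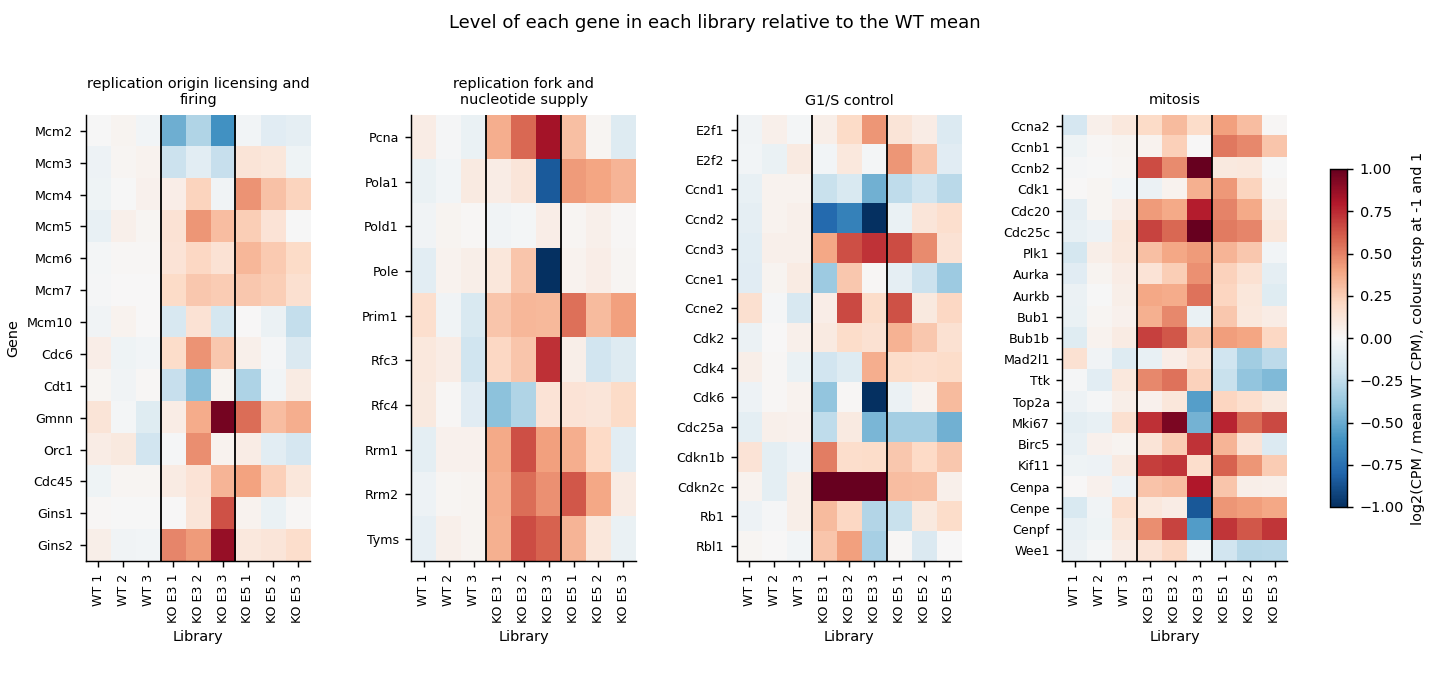
Level of each of the 60 genes (y axis) in each of the 9 libraries (x axis) as log2 of CPM over the WT mean, by role; colours stop at -1 and 1. Mitosis genes are mostly red in both clones, Cdkn2c is deep red and Ccnd2 blue in E3, and the column of E3 replicate 3 holds blue cells at Pola1, Pole, Cdk6, Cenpe and Cenpf.

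**Figure D3:**
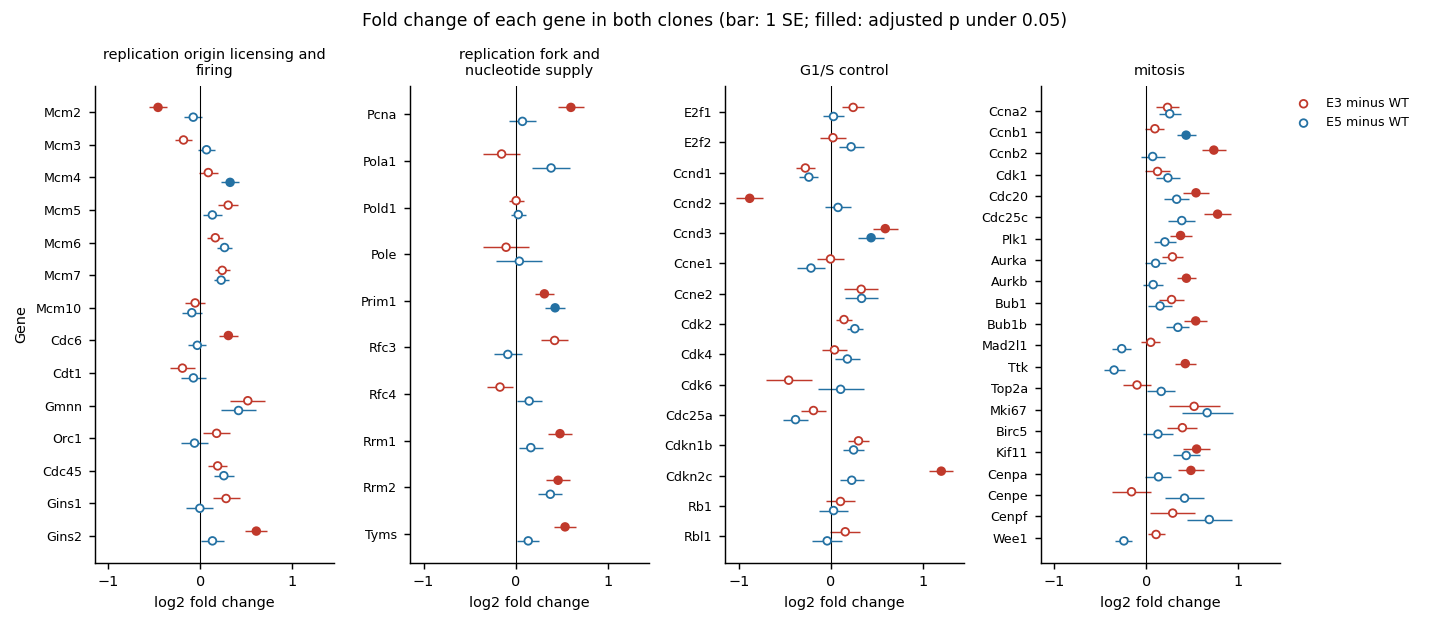
Log2 fold change of each gene against WT in E3 (red) and E5 (blue), by role, with bars of 1 SE; filled points have an adjusted p under 0.05 with all 9 libraries. Filled red points are 20 and filled blue points 4, and bars are widest for genes with long transcripts such as Mki67, Pole and Cdk6.

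Origin licensing and firing came first in the order of the cycle. In E3, 2 of these 14 genes were called higher, Cdc6 and Gins2, and 1 lower, Mcm2. In E5, 1 was called, Mcm4, and the remaining genes lay between -0.09 for Mcm10 and 0.42 for Gmnn. The shares called, 21.4% and 7.14%, are below the 30.5% and 20.6% of all genes. When E3 replicate 3 was left out, E3 had 4 higher and 2 lower and E5 had 5 higher, or 42.9% and 35.7% called, not above the 43.2% and 42% of all genes. E3 had 4 higher and 1 lower without E3 replicate 1, and 1 higher and 1 lower without E3 replicate 2, any 1 WT library or any 1 E5 library. The subunits of the MCM helicase did not move as a unit. Mcm2 (chr6:88860456-88875762), chosen after its values were seen as the subunit that fell, stood at 330.3, 337 and 323 CPM in WT, at 235, 268 and 217 CPM in E3 and at 324, 305 and 309.9 CPM in E5. The E3 libraries were all below the others, while those of E5 overlapped WT. Its log2 fold change was -0.46 ± 0.098 in E3 (adjusted p 0.00558) and -0.08 ± 0.098 in E5 (0.639), and the clones differed by 0.38 ± 0.098 (adjusted p 0.0134), a call that was lost without E5 replicate 1 and with only the 2 lines compared. The 50 tested genes around Mcm2 had a median of 0.40 between the clones and -0.13 in E3, and the nearest 20 had 0.24 and -0.099. Omitting E3 replicate 3 gave -0.40 in E3 (0.00112).

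Mcm4 (ENSMUSG00000022673.6, chr16:15441761-15455264), another subunit, stood at 312, 319 and 331 CPM in WT, at 335, 374 and 312 CPM in E3 and at 437, 393 and 375 CPM in E5. Only the E5 libraries were all above WT, and here the call is slight, with a log2 fold change of 0.32 ± 0.10 and an adjusted p of 0.0468, against 0.09 ± 0.10 in E3 (adjusted p 0.559). The clones did not pass the test against each other (0.24 ± 0.10, adjusted p 0.101). The call in E5 was lost when any 1 of the 3 WT libraries, any 1 of the 3 E5 libraries or E3 replicate 1 was left out, and the adjusted p was 0.00364 when E3 replicate 3 was. It was also lost without a filter and with at least 10 counts asked of every library. The 50 tested genes around Mcm4 on its chromosome had a median of 0.24 in E5, so its region moved by a similar amount. Mcm3 (chr1:20873192-20890536), with the highest mean CPM of the group, stood at 567, 596 and 601 CPM in WT, at 507, 546 and 501 CPM in E3 and at 644, 635 and 570.5 CPM in E5. E3 was the lowest line without overlap, yet no comparison passed edgeR's test: -0.18 ± 0.092 in E3 (adjusted p 0.161), 0.07 ± 0.092 in E5 (0.664) and 0.25 ± 0.092 between the clones (0.0611). Mcm3 was called between the clones without E3 replicate 2 and without E3 replicate 3 (0.23, adjusted p 0.0298), by DESeq2 and with the trend on the union of exons subtracted, and Mcm4 without E3 replicate 2.

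Gins2 (ENSMUSG00000031821.12, chr8:121305372-121316043) encodes a subunit of GINS, which joins CDC45 and MCM to form the active helicase. It stood at 27.2, 25.5 and 25.6 CPM in WT, at 36.6, 35.1 and 47.8 CPM in E3 and at 28.0, 28.4 and 29.4 CPM in E5. All E3 libraries were above all others, with replicate 3 the highest, and those of E5 were just above WT. The log2 fold change was 0.61 ± 0.12 in E3 (adjusted p 0.00373) and 0.13 ± 0.12 in E5 (0.497), and E5 was below E3 by -0.48 ± 0.12 (0.0124). Without E3 replicate 3 the E3 value was 0.46 ± 0.070, with an adjusted p of 0.000266. The 50 genes around Gins2 had medians of 0.24 in E3 and -0.11 between the clones, and the nearest 20 had 0.40 and -0.49, so its near region moved with it between the clones. The 4 genes of the group that were called in any comparison thus moved in different directions.

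Promoters of the genes were read from RefSeq (GRCm38.p6, 250 bases before to 50 after each start), where 47 of the 60 genes had an entry. Of 19 matched replication genes, 9 (47.4%) held TTTCCCGC or TTTGGCGC, forms of the E2F element, on either strand, as did 1.8% of all 27025 genes listed. Of 17 matched mitosis genes, 12 (70.6%) held TTTGAA, the core of the CHR element, as did 20.2% of all genes, and 15 (88.2%) held CCAAT, as did 41.1%. No mitosis gene held these E2F letters in the window, and 2 replication genes held TTTGAA. These are matches of letters and say nothing of binding. Promoters are printed for Cdc6 here and for Ttk with its levels, since among replication genes with an E2F match and mitosis genes with a CHR match these had the smallest p in any comparison. Cdc6, which loads the MCM helicase, stood at 56.3, 52.1 and 52.8 CPM in WT, at 61.1, 73.4 and 64.7 CPM in E3 and at 55.5, 53.4 and 48.7 CPM in E5. Its E3 libraries were above all others and E5 overlapped WT, with 0.31 ± 0.10 in E3 (adjusted p 0.0411), -0.03 ± 0.10 in E5 (0.859) and -0.34 ± 0.10 between the clones (0.026). The E3 call of Cdc6 was lost without any 1 WT library, without E3 replicate 2 and without any 1 E5 library, and that between the clones without WT replicate 2 or 3, E3 replicate 2 and E5 replicate 2 or 3. Both calls were also lost without a filter and with only the 2 lines compared.
Cdc6 promoter, chr11:98907901-98908200, plus strand, GRCm38.p6, with the E2F match (opposite strand, beginning 138 bases before the start) in capitals: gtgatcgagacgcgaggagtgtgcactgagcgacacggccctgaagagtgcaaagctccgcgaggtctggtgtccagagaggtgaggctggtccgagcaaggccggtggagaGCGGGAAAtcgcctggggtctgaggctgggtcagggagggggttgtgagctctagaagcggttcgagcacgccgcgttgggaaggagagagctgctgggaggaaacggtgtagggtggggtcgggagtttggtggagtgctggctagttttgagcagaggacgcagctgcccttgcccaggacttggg

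Of the 10 replication fork and nucleotide supply genes, 5 were called higher in E3 and 0 lower by edgeR, where all genes gave 15.7% and 14.7%, and the uncalled Rfc4, Pola1 and Pole were negative. The sign of the last 2 rests on E3 replicate 3: without it Pola1 was at 0.095 (adjusted p 0.276) and Pole at 0.19 and called (0.0478). The called genes were Pcna, Prim1, the ribonucleotide reductase genes Rrm1 and Rrm2, and Tyms, which makes thymidylate. The median of the 10 was 0.37 in E3 and 0.14 in E5, where only Prim1 was called (10%, below the 20.6% of all genes). The E3 count was 2 without WT replicate 2 or WT replicate 3 and 3 without WT replicate 1 or E3 replicate 2, and without E3 replicate 3 it was 6 higher and 1 lower, Rfc4, with 3 higher in E5, or 70% and 30% called among 43.2% and 42% of all genes. The E5 count was 2 without E5 replicate 3. Pcna (ENSMUSG00000027342.15, chr2:132091082-132095234), the sliding clamp that holds the polymerases on DNA and the gene of the group with the highest mean CPM, stood at 268, 253 and 244 CPM in WT, at 327, 379 and 454 CPM in E3 and at 314, 258 and 233 CPM in E5. The E3 libraries were all above the rest, and E5 overlapped WT, its replicate 3 lowest. The log2 fold change was 0.60 ± 0.14 in E3 (adjusted p 0.00986) and 0.07 ± 0.14 in E5 (0.767), and the clones differed by -0.53 ± 0.14 (0.0176). That difference lost its call without E5 replicate 2 or E5 replicate 3 and with only the 2 lines compared. Omitting E3 replicate 3 gave 0.47 in E3 (0.00564) and -0.39 between the clones (0.0153).

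Prim1 (ENSMUSG00000025395.16, chr10:127851041-127865906), the catalytic subunit of the primase that starts each DNA strand, was called in both clones. It stood at 49.7, 43.1 and 39.7 CPM in WT, at 53.7, 55.6 and 55.4 CPM in E3 and at 64.8, 54.9 and 58.8 CPM in E5. Every KO library was above every WT library. The log2 fold change was 0.31 ± 0.11 in E3 (adjusted p 0.0485) and 0.43 ± 0.11 in E5 (0.0171), and the comparison of the clones did not pass (0.12 ± 0.11, 0.436). The E5 call was lost without WT replicate 2, WT replicate 3 or E5 replicate 1, and the E3 call without WT replicate 2 or 3, E3 replicate 1 or 2, or any 1 E5 library. The E3 call was also lost without a filter, with only the 2 lines compared and with the trend on canonical length subtracted. Omitting E3 replicate 3 gave 0.30 in E3 (0.0252) and 0.43 in E5 (0.00193).

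Pola1, its partner in the DNA polymerase alpha complex, was chosen after its values were seen as a case that rests on 1 library. It stood at 103, 107 and 115 CPM in WT, at 114, 118 and 60.7 CPM in E3 and at 146, 142 and 137 CPM in E5. All E5 libraries were above all WT libraries, and in E3 the first 2 were close to WT and replicate 3 far below. The log2 fold change in E5 was 0.39 ± 0.20 with an adjusted p of 0.219, and without E3 replicate 3 the value was 0.39 ± 0.060 with an adjusted p of 0.000282. The fold change was the same and the spread differed. The value was also called with only the 2 lines compared. The 50 tested genes around Pola1 had a median of 0.20 in E5, and the nearest 20 had 0.28.

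Among the genes that control entry into S phase, E3 had 3 of 15 called, Cdkn2c and Ccnd3 higher and Ccnd2 lower, and E5 had 1, Ccnd3, higher. The medians were 0.10 and 0.11, and the shares called, 20% and 6.67%, are below the 30.5% and 20.6% of all genes. The E3 count was 6 without E3 replicate 2 (2 higher, 4 lower) or E3 replicate 3 (4 higher, 2 lower), and the E5 count was 7 without E3 replicate 3. Of these 7, Ccnd1 (-0.23) and Cdc25a (-0.38) were lower and the rest higher. Without E3 replicate 3, 40% and 46.7% were thus called, near the 43.2% and 42% of all genes. Cdkn2c (ENSMUSG00000028551.15, chr4:109518073-109524386) encodes p18, an inhibitor of CDK4 and CDK6, and had the largest change of the 60 genes in E3. It stood at 34.7, 31.6 and 35.2 CPM in WT, at 73.4, 67.4 and 92.2 CPM in E3 and at 41.9, 41.7 and 35.0 CPM in E5. E3 was far above both other lines, and E5 overlapped WT. Against WT the log2 fold change was 1.20 ± 0.13 in E3 (adjusted p 0.000136) and 0.23 ± 0.13 in E5 (0.26), and E5 was below E3 by -0.97 ± 0.13 (0.000345). Without E3 replicate 3 the values were 1.06 (3.73e-06) in E3 and 0.23 (0.039) in E5, a value also called with only the 2 lines compared. The genes around Cdkn2c had a median of -0.12 in E3.

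Ccnd2 (ENSMUSG00000000184.13, chr6:127102125-127129156), cyclin D2, went the other way in E3. It stood at 439.8, 481 and 485 CPM in WT, at 274, 294 and 194 CPM in E3 and at 448, 509 and 526 CPM in E5. All E3 libraries were below all others, with replicate 3 the lowest, and E5 overlapped WT. Its log2 fold change was -0.88 ± 0.15 in E3 (adjusted p 0.00148) and 0.08 ± 0.15 in E5 (0.765), with 0.96 ± 0.15 between the clones (0.000814). It was -0.73 in E3 without replicate 3 (4.04e-05), and the genes around it had a median of -0.08.

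Ccnd3 (ENSMUSG00000034165.17, chr17:47815976-47910616), cyclin D3, stood at 55.1, 61.3 and 61.4 CPM in WT, at 77.6, 92.5 and 97.7 CPM in E3 and at 93.1, 82.1 and 65.5 CPM in E5. Both clones were above WT in every library. By the test, the log2 fold change was 0.59 ± 0.14 in E3 (adjusted p 0.0093) and 0.44 ± 0.14 in E5 (0.0488), and the comparison of the clones, whose libraries overlap, did not pass (-0.15 ± 0.14, 0.427). The E5 call was lost without any 1 WT library, without E3 replicate 2 and without E5 replicate 1 or 2, with upper-quartile scaling, with at least 10 counts asked of every library and with the trend on the union of exons subtracted. Omitting E3 replicate 3 gave 0.52 in E3 (0.0055) and 0.44 in E5 (0.00799). Ccnd1 (chr7:144483668-144493606), cyclin D1 and the most abundant gene of the group by mean CPM, stood at 556, 597 and 599 CPM in WT, at 500.3, 525 and 419.9 CPM in E3 and at 491, 509 and 484 CPM in E5. Both clones were below WT in every library, and no test was passed in the fit of all 9 libraries by edgeR: -0.28 ± 0.10 in E3 (adjusted p 0.0655), -0.24 ± 0.10 in E5 (0.132) and 0.04 ± 0.10 between the clones (0.807). Without E3 replicate 3 both values against WT were called, -0.19 in E3 (0.0448) and -0.23 in E5 (0.00988), and the E3 value was also called without E3 replicate 2, by DESeq2 and with either length trend subtracted. The E5 value was also called with only the 2 lines compared and with the trend on canonical length subtracted.

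Per kb of canonical transcript the order of the D cyclins could be set out. In WT, Ccnd1 stood at 154 CPM per kb, Ccnd2 at 74.1 and Ccnd3 at 29.4. In E3 the levels were 127, 40.1 and 44.2 CPM per kb, and in E5 they were 130.3, 78.1 and 39.8. The order of the last 2 in E3 rests on replicate 3, with 30.7 for Ccnd2 and 48.4 for Ccnd3, while Ccnd2 was above Ccnd3 in replicate 1 (43.3 and 38.4) and replicate 2 (46.4 and 45.8). It rests on the measure of length too. Ccnd2 and Ccnd3 have 6330 and 2018 bases in the canonical transcript, and 9409 and 9245 in the union of exons. Their mean CPM in E3 were 254 and 89.3. The order of Ccnd1 first was the same in each line.

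**Figure D4:**
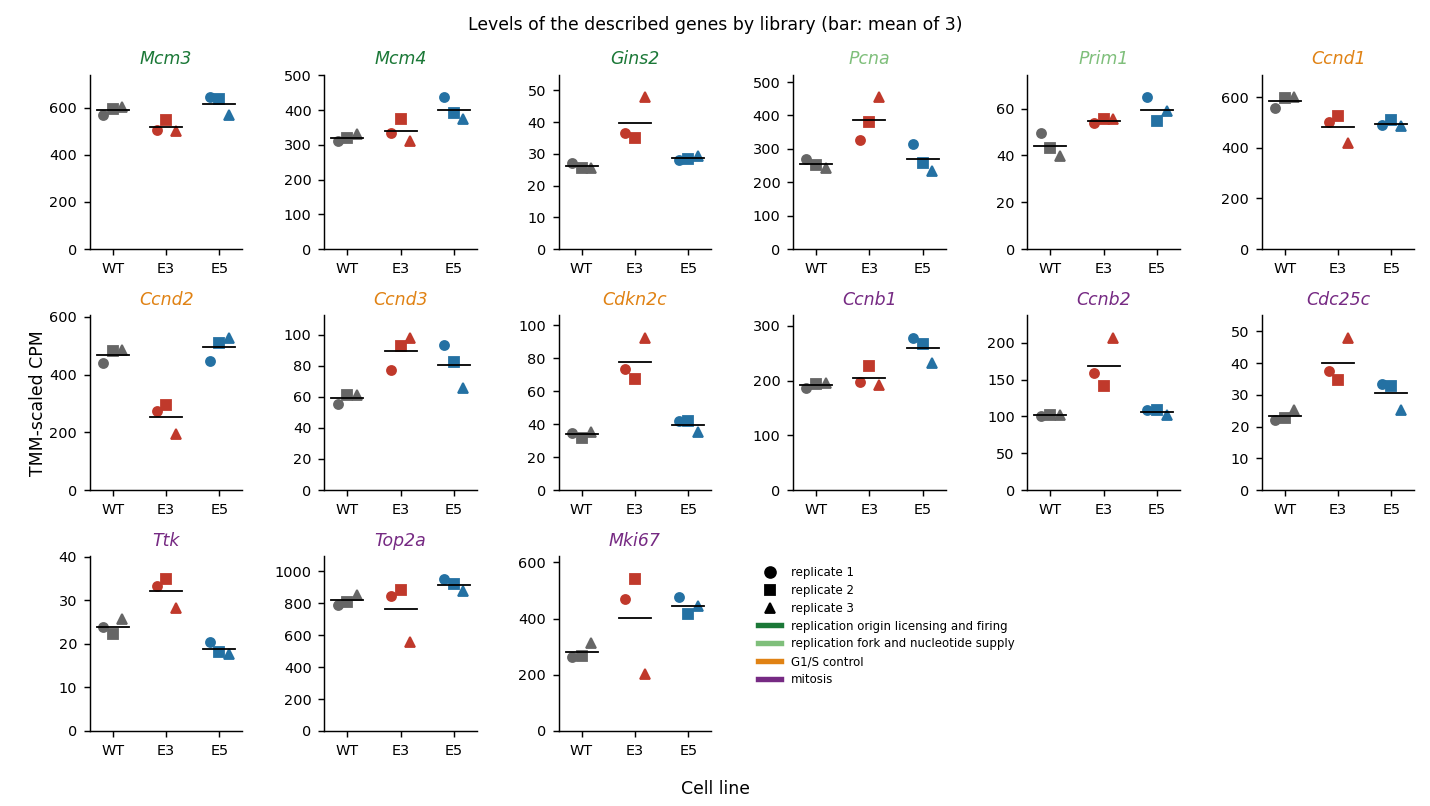
TMM-scaled CPM (y axis, from 0) of 15 genes in WT, E3 and E5 (x axis), 1 point per library with its replicate as the symbol and the mean of 3 as the bar. Cdkn2c, Ccnb2 and Gins2 are higher in E3 than in the other lines, Ccnd2 is lower there, and in Mki67 and Top2a the triangle of E3 replicate 3 lies far below its circle and square.

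Mitosis genes were called higher in E3 in 9 of 21 cases (42.9%) and lower in 0, where 15.7% and 14.7% of all genes were, and 19 of the 21 fold changes were positive with a median of 0.37. In E5, 1 was called (4.76%), Ccnb1, below the 20.6% of all genes, with 18 of 21 positive and a median of 0.20. The 9 called in E3 were Ccnb2, Cdc20, Cdc25c, Plk1, Aurkb, Bub1b, Ttk, Kif11 and Cenpa, and the rest ranged from -0.16 for Cenpe to 0.52 for Mki67. The E3 count was 3 without WT replicate 1 or WT replicate 2, 6 without E3 replicate 1 and 12 without E3 replicate 3 (57.1%, among 43.2% of all genes). For the fits that gave 3 and 6 the share of all genes is not given. Their counts are not read as particular to mitosis genes. The E5 count was 12 without E3 replicate 3 (57.1%, among 42% of all genes), 3 without E3 replicate 2 and 2 without E5 replicate 3. It was 0 without any 1 WT library or E5 replicate 1 or 2. Of the 12, Mad2l1 (-0.26), Ttk (-0.34) and Wee1 (-0.24) were lower and the rest higher. Ccnb2 (ENSMUSG00000032218.8, chr9:70314974-70328829), a B-type cyclin that activates CDK1, stood at 100.4, 101 and 103 CPM in WT, at 159, 141 and 206 CPM in E3 and at 109, 109 and 101 CPM in E5. E3 was above both other lines in every library. This gave a log2 fold change of 0.73 ± 0.13 in E3 (adjusted p 0.00205) and 0.07 ± 0.13 in E5 (0.758), and -0.67 ± 0.13 between the clones (0.00336). With E3 replicate 3 left out, the E3 value was 0.56 (4.94e-05).

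Ccnb1 (ENSMUSG00000041431.17, chr13:100915158-100923078), the other main B-type cyclin, had the reverse pattern. It stood at 187, 194 and 196 CPM in WT, at 197, 226 and 192 CPM in E3 and at 277, 268 and 233 CPM in E5. Only the E5 libraries were all above WT, and they were above E3 too. As log2 fold change this was 0.43 ± 0.10 in E5 (adjusted p 0.0136) and 0.09 ± 0.10 in E3 (0.53), and 0.34 ± 0.10 between the clones (0.029). The 50 genes around Ccnb1 had medians of 0.25 in E5 and 0.28 between the clones, and the nearest 20 had 0.31 and 0.22. Its region thus moved in the same direction. The E5 call was lost without any 1 WT library and without E5 replicate 1 or 2, and the call between the clones in those fits, without E3 replicate 1, with upper-quartile scaling, without a filter and with only the 2 lines compared. The E5 value with E3 replicate 3 left out was 0.44 (0.000858).

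Cdc25c, a phosphatase that activates CDK1 at the entry to mitosis, stood at 22.2, 22.6 and 25.3 CPM in WT, at 37.4, 34.8 and 47.9 CPM in E3 and at 33.5, 32.9 and 25.3 CPM in E5. E3 was above WT and E5 in every library, and E5 overlapped WT. In log2 terms the change was 0.78 ± 0.15 in E3 (adjusted p 0.00308) and 0.39 ± 0.15 in E5 (0.0926), and -0.39 ± 0.15 between the clones (0.067). When E3 replicate 3 was omitted, Cdc25c was at 0.62 in E3 (0.000903) and 0.39 in E5 (0.00948), and it was also called in E5 without E5 replicate 3, with only the 2 lines compared and with the trend on canonical length subtracted. Between the clones it was called without E3 replicate 2 and with upper-quartile scaling. Ttk (ENSMUSG00000038379.16, chr9:83716743-83754442), the kinase MPS1 of the spindle checkpoint, stood at 23.8, 22.3 and 25.7 CPM in WT, at 33.4, 34.9 and 28.1 CPM in E3 and at 20.5, 18.2 and 17.6 CPM in E5. The 3 lines did not overlap, with E3 above WT and E5 below it. Against WT the log2 fold change was 0.42 ± 0.11 in E3 (adjusted p 0.0173) and -0.35 ± 0.11 in E5 (0.0533), which just missed the threshold and was -0.34 with an adjusted p of 0.00513 without E3 replicate 3. The E3 call of Ttk was lost without WT replicate 1, WT replicate 2 or E3 replicate 1, and the E5 value was also called without E3 replicate 2, by DESeq2, with upper-quartile scaling, with only the 2 lines compared and with either length trend subtracted. The clones differed by -0.77 ± 0.11 (0.000616). The 50 genes around Ttk had medians of 0.006 in E3, -0.18 in E5 and -0.13 between the clones. The nearest 20 had -0.24 in E5.
Ttk promoter, chr9:83834439-83834738, plus strand, GRCm38.p6, with the CHR match (opposite strand, beginning 7 bases after the start) in capitals: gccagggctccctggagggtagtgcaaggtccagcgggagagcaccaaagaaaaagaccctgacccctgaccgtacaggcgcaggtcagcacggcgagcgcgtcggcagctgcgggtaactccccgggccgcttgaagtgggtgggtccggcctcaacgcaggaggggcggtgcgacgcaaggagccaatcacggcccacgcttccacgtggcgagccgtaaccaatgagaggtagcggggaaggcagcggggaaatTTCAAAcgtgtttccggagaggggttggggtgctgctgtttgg

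Top2a, which untangles replicated chromosomes and had the highest mean CPM of the mitosis genes, stood at 791, 810.5 and 854 CPM in WT, at 844, 886 and 559.7 CPM in E3 and at 952, 922 and 874 CPM in E5. E3 replicate 3 was the lowest library of all, the other E3 libraries lay within or just above WT, and E5 was above WT in every library. No comparison passed the test: -0.10 ± 0.15 in E3 (adjusted p 0.664), 0.16 ± 0.15 in E5 (0.516) and 0.26 ± 0.15 between the clones (0.222). Without E3 replicate 3 the E3 value was 0.08 (0.431).

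Mki67, the gene of the proliferation marker Ki-67, was chosen after its values were seen, as were Cenpf and Cenpe, which act at the kinetochore. Mki67 stood at 263, 268 and 314 CPM in WT, at 468, 540.3 and 203 CPM in E3 and at 477, 415 and 444 CPM in E5. E5 was above WT in every library, and so were 2 of the 3 E3 libraries, while E3 replicate 3 was below WT. Its log2 fold change was 0.52 ± 0.28 in E3 (adjusted p 0.187) and 0.66 ± 0.28 in E5 (0.124), and without E3 replicate 3 it was 0.84 ± 0.097 (3.41e-05) and 0.67 ± 0.088 (9.37e-05). Cenpf in E5 was at 258, 242 and 257 CPM against 149, 152 and 169.6 CPM in WT, a log2 fold change of 0.69 with an adjusted p of 0.073, or 1.87e-05 without E3 replicate 3. Cenpe in E5 had 0.42 with an adjusted p of 0.198, or 0.000752 without that library. Leaving out E3 replicate 3 thus brought calls for Mki67 and Cenpf in both clones and for Cenpe in E5. With all 9 libraries, Cenpf in E5 was also called by DESeq2, Cenpf and Mki67 without a filter, and Cenpf, Mki67 and Cenpe with the trend on canonical length subtracted. In E3 that trend brought calls for Mki67 and Cenpf. The trend on the union of exons brought calls for Cenpf in both clones. Cenpf in E5 was also called without E3 replicate 2, and all 3 in E5 with only the 2 lines compared.

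**Figure D5:**
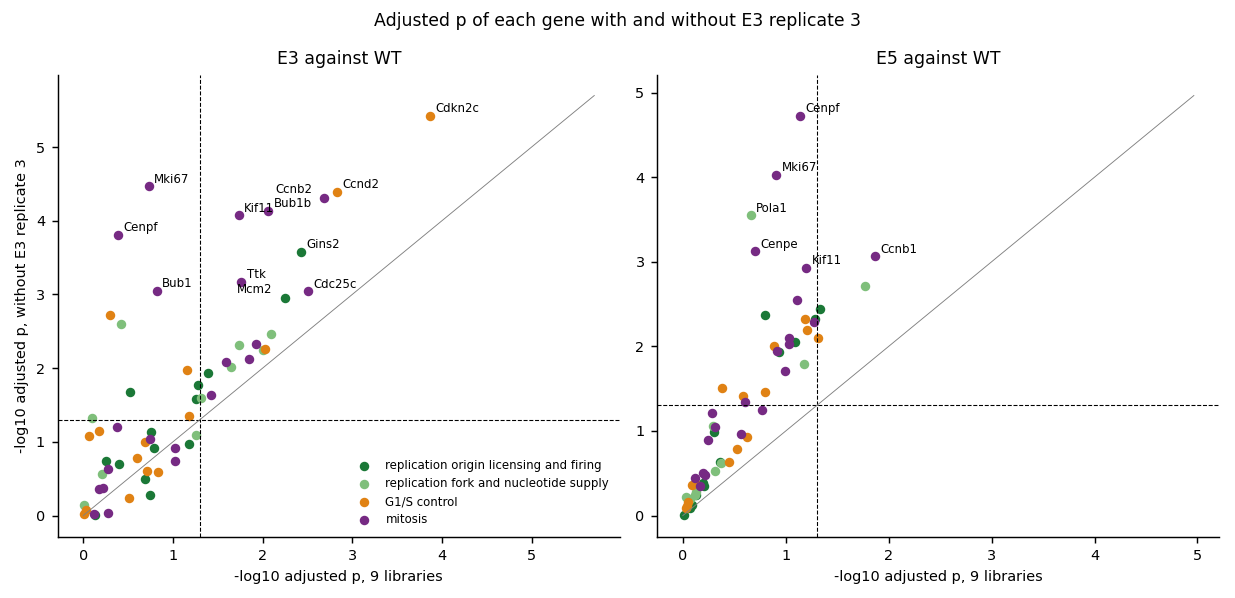
Adjusted p of the 60 genes as -log10 with all 9 libraries (x axis) against that without E3 replicate 3 (y axis), for E3 and E5 against WT, coloured by role; dashed lines mark 0.05 and the grey line is equality. In E5, 27 genes lie above the horizontal dashed line and 4 right of the vertical one, and Cenpf, Mki67, Pola1 and Cenpe lie highest above the line of equality.

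Summed, the mitosis genes came to 3215, 3357 and 3535 CPM in WT, 4183, 4402 and 3515 CPM in E3 and 4389, 4105 and 3811 CPM in E5. The 24 replication genes came to 4038, 4142 and 4127 CPM in WT, 4281, 4739.6 and 4493 CPM in E3 and 4837, 4556 and 4252 CPM in E5. Every KO library was above every WT library for replication, and for mitosis all but E3 replicate 3 were. Within replication, the licensing sum of E3 replicate 1, 2798 CPM, was below every WT library. Without TMM scaling that sum was 2876, above every WT library, and the mitosis sum of E3 replicate 3 was 3612, above the highest of WT, 3521. The G1/S genes came to 2067, 2140.2 and 2129 CPM in WT and 1846, 1984 and 1839 CPM in E3. In E5 they came to 2138, 2178 and 2169 CPM. Every E3 library was thus below WT and E5 overlapped it. Abundant cyclins weigh on this sum: Ccnd2 had a mean of 469 CPM in WT and 254 in E3, and Ccnd1, not called, 584 and 482. Of the 15 fold changes in E3, 10 were positive. The ratio of replication to mitosis sums lay between 1.17 and 1.26 in WT, between 1.10 and 1.12 in E5 and at 1.02, 1.08 and 1.28 in E3, where the last value is replicate 3. E5 replicate 3 was the lowest E5 library for both sums. The replication, G1/S and mitosis sums in WT were 4102 ± 56.2, 2112 ± 39.3 and 3369 ± 161 CPM (SD, n = 3).

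Other genes of the same pathways were taken from lists not overlapping the 60, and no test compared the lists. Of 63 other mitosis genes, 17 were called higher and 1 lower in E3 (15.7% and 14.7% of all genes were) and 11 and 1 in E5 (8.96% and 11.7% of all genes). The shares called, 28.6% and 19%, are near the 30.5% and 20.6% of all genes, and the medians were 0.25 and 0.17. With E3 replicate 3 left out the counts were 37 and 2 in E3 and 29 and 3 in E5, or 61.9% and 50.8% called among 43.2% and 42% of all genes. The higher and lower counts were 8 and 1 in E3 without WT replicate 1 and 9 and 1 without WT replicate 2. In E5 they were 3 and 1 without WT replicate 1, E5 replicate 1 or E5 replicate 2, and 4 and 1 without WT replicate 2 or 3. Cdkn3, a phosphatase of CDKs, was at 1.31 in E3 (adjusted p 0.000304) and 0.62 in E5 (0.0246). Ckap2, a spindle protein, was at 1.03 in E3 (5.82e-05), and Kif20a, a kinesin of cell division, at 0.71 in E3 (0.00312) and 0.56 in E5 (0.0143). Ncapd2, a condensin subunit, was at 0.59 in E5 (0.00401). Without E3 replicate 3, Ncapd2 was called in E3 as well, at 0.52 (0.000427), and Ckap2 in E5, at 0.56 (0.000134). Between the clones, Melk, a mitotic kinase, was at -0.71 (0.000525), Cdkn3 at -0.69 (0.00858) and Spc24, a kinetochore subunit, at -0.54 (0.029), or -0.30 (0.0172) without E3 replicate 3.

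Of 44 other replication genes, 10 were called higher and 5 lower in E3, and 5 and 5 in E5, with medians of 0.08 and 0.07. The shares called, 34.1% and 22.7%, are near the 30.5% and 20.6% of all genes. The largest in E3 were all falls: Recql4, a helicase used at origins, at -1.09 (adjusted p 6.56e-05), Orc2, an origin recognition subunit, at -0.80 (0.00647) and Mtbp, which acts in origin firing, at -0.75 (0.00088). In E5, Pole2, a subunit of polymerase epsilon, was at 0.69 (0.000967), Recql4 at -0.67 (0.00127) and Dut, which removes dUTP, at -0.65 (0.0301). Without E3 replicate 3, Pole2 and Dut were called in E3 as well, at 0.47 (0.000817) and -0.71 (0.000161). In that fit Orc2 and Mtbp were called in E5, at -0.30 (0.0493) and -0.22 (0.0152). Between the clones, Slbp, which binds histone mRNA, was at -0.86 (0.000629), Mtbp at 0.53 (0.0057) and Fen1, a flap nuclease, at -0.51 (0.0121). With E3 replicate 3 left out the counts were 17 and 7 in E3 and 11 and 9 in E5, or 54.5% and 45.5% called among 43.2% and 42% of all genes. They were 6 and 3 in E3 without WT replicate 2. In E5 they were 1 and 2 without WT replicate 1, WT replicate 2 or E5 replicate 1, 2 and 3 without WT replicate 3, and 1 and 1 without E5 replicate 2.

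Of 23 other G1/S genes, 20 were tested, and Cdkn2a, Cdkn2b and Cdkn1c, all CDK inhibitors, had 0 counts in every library. In E3, 3 were called higher and 2 lower, and in E5, 4 higher and 0 lower. These are 25% and 20% called, not above the 30.5% and 20.6% of all genes. Leaving out E3 replicate 3 gave 5 higher and 3 lower in E3 and 5 and 2 in E5, or 40% and 35% among 43.2% and 42% of all genes. The E3 count was 2 without any 1 WT library and 3 without E3 replicate 1, E5 replicate 1 or E5 replicate 2, and the E5 count was at most 1 without any 1 WT library, E5 replicate 1 or E5 replicate 2. Cdkn2d, which encodes the INK4 inhibitor p19, stood at 12.3, 12.5 and 13.5 CPM in WT, at 24.9, 25.6 and 40.5 CPM in E3 and at 16.8, 14.0 and 10.9 CPM in E5. E3 was above both other lines in every library, with a log2 fold change of 1.25 (adjusted p 0.00131) and -1.13 between the clones (0.00214). Without E3 replicate 3, its highest library, the values were 0.99 (0.00014) and -0.86 (0.000359). Rbl2, a retinoblastoma relative, was at 0.61 in E3 (0.0172) and 0.68 in E5 (0.0138), and E2f5, a repressive E2F, at -0.51 in E3 (0.00306). In E5, E2f7, another repressive E2F, was at 0.64 (0.03) and Cdkn1a, which encodes p21, at 0.41 (0.00931). Without E3 replicate 3, E2f7 and Cdkn1a were called in E3 as well, at 0.53 (0.000795) and 0.23 (0.0175). Between the clones, Tfdp2 and E2f3, which form E2F complexes, were at 0.66 (0.0211) and 0.47 (0.0357), or 0.46 (0.00292) and 0.31 (0.0113) without E3 replicate 3. Of the 4 INK4 genes, therefore, the 2 that were expressed were both higher in E3.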

How the data were processed

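The data were 9 LLC libraries, 3 each of WT, KO E3 and KO E5. Per the submitters' processing notes, reads were checked with FastQC, trimmed with Trimmomatic and aligned with STAR to GRCm39. The authors deposited raw counts per gene, not normalized and with replicates kept apart. The counting tool and its strand setting are not given in the sources used here. From these counts, edgeR 4.0.16 in R 4.3.3 fitted the 3 lines in 1 quasi-likelihood model on TMM-scaled counts, after filterByExpr (minimum count 10, minimum total 15) kept 14593 of 50813 genes. Calls had an adjusted p under 0.05 by Benjamini-Hochberg over all genes tested. Standard errors were taken as the size of the fold change divided by the root of F. The fit was also run on simulated counts, whose outcome is not given, and no result here rests on it. The authors used DESeq2. DESeq2 1.42.0 was an alternative, as were other scalings, filters, sample sets, a replicate block and each library left out; subtracting each library's trend on transcript length was added after seeing the data, with the union of exons first and the canonical transcript in its place once that result had been seen. Genes named outside the rule below are said to be chosen after their values were seen. Genes named in full were, in each comparison, up to 5 called genes with the largest absolute log2 fold change, plus the gene with the highest mean CPM per role, and of other lists up to 3 per comparison. The 60 genes and the lists were chosen with earlier results of these data known. Neighbours were 25 tested genes on each side, fewer at chromosome ends. Total counts lay between 44257404 and 55095219.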

Additional observations from a re-analysis of the deposited data

Results flagged for a closer look

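Genes are given here because the test of E5 against E3 was passed, so that their change against WT differed between the clones (log2, E5 minus E3). Among licensing and fork genes, Mcm2 differed by 0.38, Cdc6 by -0.34, Gins2 by -0.48, Pcna by -0.53, Rfc3 by -0.51 and Tyms by -0.40. The tested genes around them, up to 25 on each side, had medians of 0.40, -0.015, -0.11, -0.06, -0.12 and -0.31, in that order. The nearest 20 around Mcm2, Gins2 and Tyms had 0.24, -0.49 and -0.12. Among G1/S genes, Ccnd2 differed by 0.96 and Cdkn2c by -0.97, with medians of 0.17 and -0.04 around them. Among mitosis genes, Ccnb1 differed by 0.34, Ccnb2 by -0.67, Aurkb by -0.36, Mad2l1 by -0.32, Ttk by -0.77 and Wee1 by -0.35. The genes around them had medians of 0.28, -0.19, -0.12, 0.11, -0.13 and -0.17, in that order. The nearest 20 around Aurkb and Mad2l1 had -0.32 and 0.35. Of the other pathway genes named, Fen1 differed by -0.51, Mtbp by 0.53, Recql4 by 0.41, Slbp by -0.86, Spc24 by -0.54, Melk by -0.71, Ckap2 by -0.48, Cdkn3 by -0.69, E2f3 by 0.47, E2f5 by 0.38, Tfdp2 by 0.66 and Cdkn2d by -1.13. All adjusted p were at or below 0.0425 by edgeR's quasi-likelihood test. All 14 calls among the 60 genes were kept without E3 replicate 3, where Rfc3 shrank to -0.32 and Gins2 to -0.32. Of them 8 were lost without E5 replicate 2, Cdc6, Pcna, Rfc3, Tyms, Ccnb1, Aurkb, Mad2l1 and Wee1, and 7 without E5 replicate 3, the same genes but Ccnb1. The fit of only the 2 lines compared lost 9, Mcm2 among them.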

How the results depend on the processing

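The E3 calls of Cdkn2c, Ccnd2, Cdc25c, Ccnb2 and Gins2 kept their direction and call under every alternative run. The replicate numbers share only a number: deviations of same-numbered libraries correlated between -0.25 and 0.10, so no pairing is taken from them. With the replicate block (paired fit), replication genes called in E5 against WT numbered 1, G1/S genes 0, and in E5 against E3 replication genes 3 and mitosis genes 3. This block lost the E3 calls of Cdc6, Cenpa, Plk1 and Prim1 and the E5 calls of Ccnd3 and Mcm4. Between the clones it lost Aurkb, Ccnb1, Cdc6, Mad2l1, Rfc3 and Tyms. With DESeq2, G1/S genes called in E3 numbered 5, and in E5 5 replication, 3 G1/S and 4 mitosis genes. In this section the number of all genes called is given only where stated. The counts of other fits cannot be set against it. With upper-quartile scaling, mitosis genes in E5 numbered 3. Without a filter, E5 had 1 replication and 3 mitosis genes, and with at least 10 counts in every library 1 replication and 0 G1/S genes. With only the 2 lines compared, E5 against WT had 8 replication, 7 G1/S and 12 mitosis genes, and E5 against E3 had 1 replication and 2 mitosis genes; all genes called in E5 against WT went from 3012 to 6596. With the length trend subtracted, chosen after seeing the data, E3 had 6 G1/S genes and E5 had 7 replication, 4 G1/S and 10 mitosis genes. With the union of exons as length, the measure run first, E5 had 5, 2 and 6, and E5 against E3 had 10 replication genes. With each library left out, calls ranged in E3 against WT from 4 to 13 (replication), 3 to 6 (G1/S) and 3 to 12 (mitosis), in E5 against WT from 0 to 8, 0 to 7 and 0 to 12, and in E5 against E3 from 2 to 10, 2 to 5 and 2 to 10. The most came without E3 replicate 3, which raised all genes called in E5 against WT to 6246. Some uncalled log2 fold changes turned in sign. That of Pcna, clone E5 against WT, was -0.0596 without KO E5 replicate 1 and reached 0.17 without KO E5 replicate 3. That of Ccnd1, clone E5 against clone E3, was -0.048 with upper-quartile scaling and -0.0438 without KO E3 replicate 3. That of Top2a, clone E3 against WT, was 0.0778 without KO E3 replicate 3 and -0.22 without KO E3 replicate 2.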
